A study of Mus musculus with 64 samples.

Results

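The 9 libraries described here hold RNA of microglia from naive adult mice labelled RISP KO (replicates 1 to 5) or RISP Het (replicates 1 to 4). They are 9 of the 64 libraries of a study on mitochondrial respiration in microglia. They were chosen as the naive KO and Het libraries that are poor in the noncoding transcripts Gm26917 and Yam1, which took 0.0688 to 0.257% of their counts. Within this range the groups did not overlap, with 0.107 to 0.257% in KO and 0.0688 to 0.105% in Het. The cells were sorted from whole brain by CD11b and CD45, and total RNA was made into stranded libraries. Naive means that no demyelinating or depleting drug is named for these mice. The labels give the age group as adult only, and they state neither age, sex nor whether replicates are separate animals, so p-values measure the spread between libraries. CreERT2, an inducible Cre recombinase, and tdTomato, a fluorescent reporter, were counted in KO, Het and WT libraries alike. CreERT2 held 502 to 863 CPM (counts scaled to the size of the library) in KO, 782 to 878 in the Het libraries and 864 to 989 in the 5 naive WT libraries of the same kind, and tdTomato held 195 to 375, 208 to 280 and 193 to 235 CPM. The labels do not name the promoter that drives the recombinase, nor the treatment that induces it.

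Respiratory complex III passes electrons from ubiquinol to cytochrome c, and the gene Uqcrfs1 encodes its catalytic Rieske subunit, RISP. Without this subunit the complex cannot oxidise ubiquinol, and electron flow from complexes I and II stalls. Cells with a blocked respiratory chain are known to turn on the integrated stress response, in which kinases that phosphorylate the initiation factor eIF2 favour translation of the transcription factor ATF4. ATF4 in turn drives genes of amino acid import, serine and one-carbon metabolism and tRNA charging. Microglia are the resident macrophages of the brain.

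In the order in which the samples are listed, KO 1 to 4 stand with WT 1 to 4, whereas KO 5 stands with Het 1 to 4 and WT 5. The labels do not say what this order stands for. They assign 1 sequencer model to untreated knockout and wild-type animals and another to all other samples, so that, as worded, sequencer and genotype cannot be told apart. Sex, read from 4 Y-linked genes, was male in 4 KO libraries and female in KO 2, and male in Het 1 and female in the other 3 Het libraries. Between 11 and 15.1 M counts were deposited for each library. The share of Gm26917 and Yam1, higher in every KO than in every Het library, was 0.0958 to 0.138% in WT 1 to 4 and 0.072% in WT 5. On the first principal component (26.7% of variance) the KO libraries lay from -58.2 to -5.4 and the Het libraries from 12.6 to 39.2. KO 5 lay nearest to the Het side at -5.4, close to KO 1 at -7.3 on this component. On the second component (18.1% of variance) KO 5 lay at 49.9 and KO 1 at -46. The nearest library of KO 5 was KO 2 (Pearson's r = 0.96 across genes, which are not independent replicates). The mean r of KO 5 was 0.947 with KO 1 to 4 and 0.951 with Het. For KO 1 the mean r was 0.949 with KO 2 to 4 and 0.951 with Het. The microglial genes P2ry12, Tmem119, Cx3cr1 and Csf1r were abundant in all 9 libraries.

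KO libraries were compared with Het libraries by edgeR's quasi-likelihood test with Benjamini-Hochberg adjustment over the 13121 genes kept. At an adjusted p under 0.05, 448 genes (3.41%) were called higher and 370 (2.82%) lower in KO, and 3125 genes had an unadjusted p under 0.05. Every KO library lay above every Het library for 407 of the 448 genes, and below for 358 of the 370, beside 814 (6.2%) and 829 (6.32%) of all genes tested. The number of calls depended on single libraries. It was 0 higher and 1 lower without Het 3, and the same without Het 4, where the gene called was Fosl2 both times, so that no other call given below held without either of them. It was 115 (0.855%) and 83 (0.617%) without Het 1, and 653 (5.04%) and 635 (4.9%) without KO 1. All 818 called genes kept their sign without any 1 of the Het libraries, and at least 815 without any 1 of the KO libraries. Most of these genes had no overlap between KO and Het in the same libraries, so kept signs are a description only. With sex as a term 0 genes were called higher and 2 (0.0152%) lower, Uqcrfs1 and Fosl2, with 2189 genes at an unadjusted p under 0.05. The median log2 fold change of the 448 genes was 0.70 with that term and 0.73 without it, and that of the 370 genes -0.50 and -0.51.

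Uqcrfs1 (ENSMUSG00000038462, protein-coding, minus strand of chr13:30540308-30545362 in GRCm38) was low in every library labelled KO. Its level was 9.51, 5.71, 10.2, 7.50 and 8.37 CPM in KO 1 to 5 and 40.7, 25.5, 23.5 and 21.1 CPM in Het 1 to 4. The groups did not overlap, and KO 5 lay inside the range of KO 1 to 4. The fitted log2 fold change was -1.74 ± 0.23 (SE, adjusted p = 0.0133), and the adjusted p was 0.0642 without Het 3 and 0.0538 without Het 4. WT libraries held 37.8 to 48.6 CPM, and Het 1 was the only Het library inside that range.

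**Figure D1:**
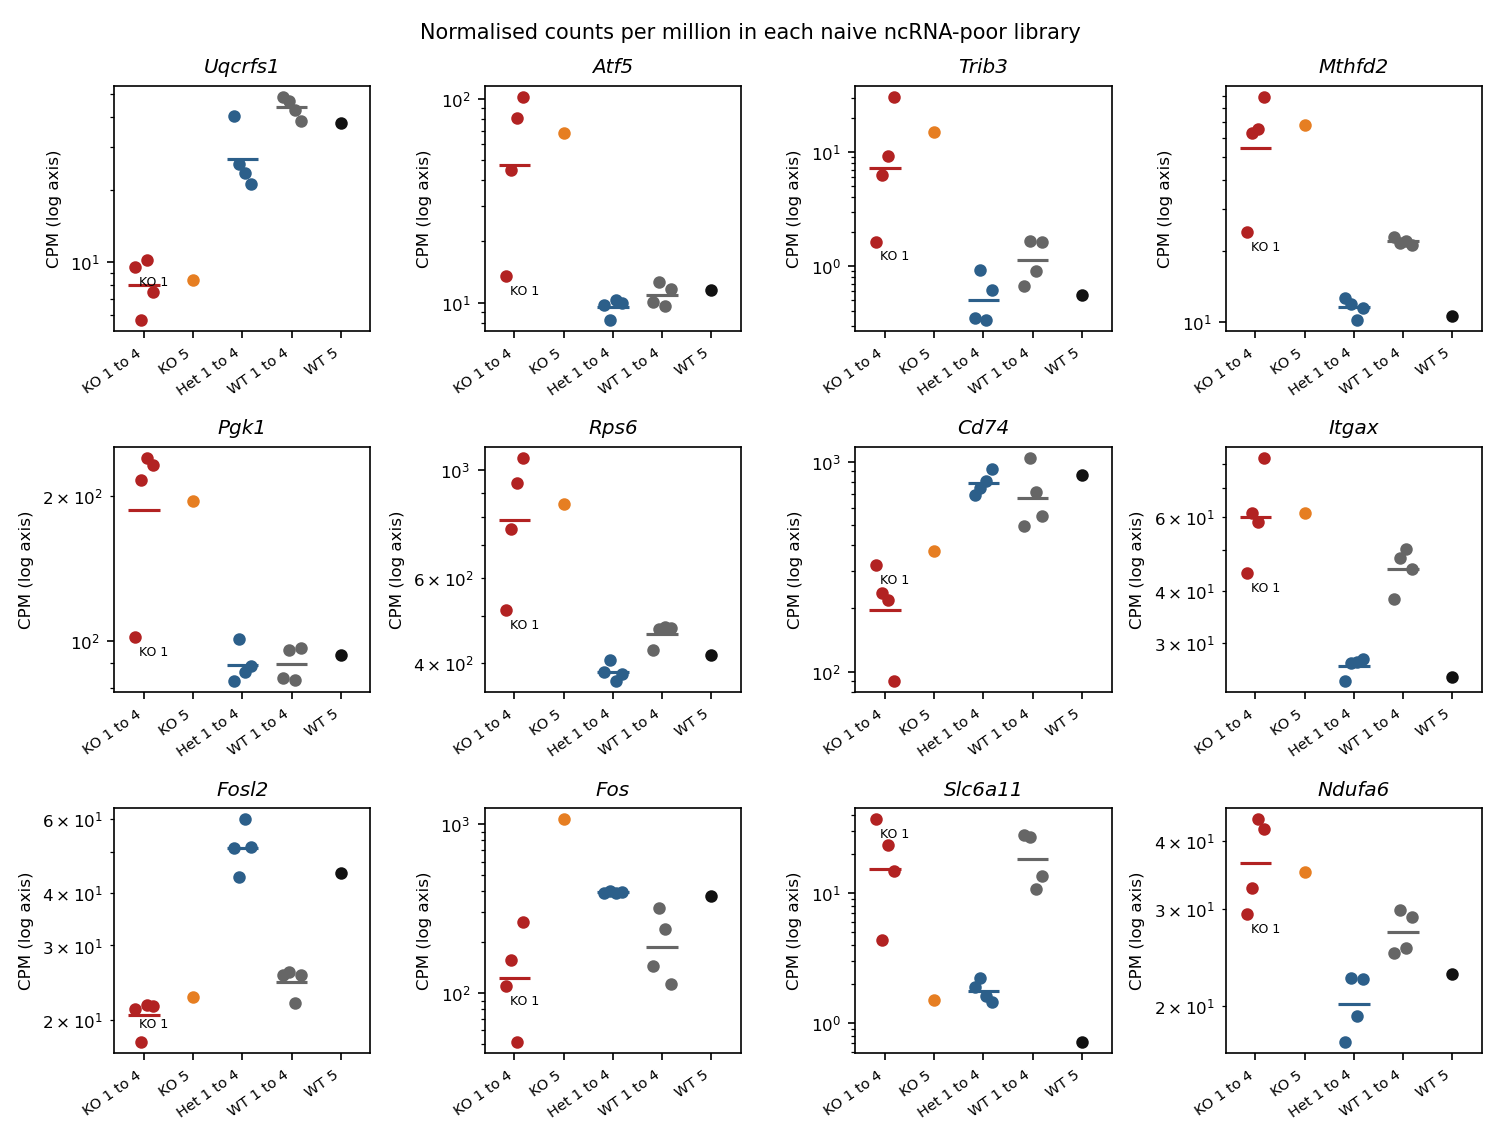
Normalised CPM (log axis) of 12 genes in the 14 naive ncRNA-poor libraries. Each point is 1 library, bars are geometric means of groups with several libraries, and KO 1 is named. Uqcrfs1 is low in all 5 KO libraries, the stress and glycolysis genes Atf5, Trib3, Mthfd2 and Pgk1 are lowest in KO 1 among KO, and Fosl2 and Slc6a11 differ between WT 1 to 4 and WT 5.

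The other complex III genes did not follow Uqcrfs1 down. Of 15 tested, 2 rose, none fell, and the median log2 fold change was 0.30 beside 0.02 over all genes tested. Uqcrh, the hinge subunit, held 38.7, 50.8, 65.5, 72.2 and 51.9 CPM in KO and 28.4, 36.8, 27.4 and 27.0 CPM in Het, a log2 fold change of 0.91 ± 0.18 (adjusted p = 0.022). Every KO library lay above every Het library for Uqcrh, and for Uqcc2, an assembly factor (0.67 ± 0.14, adjusted p = 0.0266). The core subunits Uqcrc1 (-0.05 ± 0.09) and Uqcrc2 (0.31 ± 0.09) and the mitochondrially encoded mt-Cytb (0.13 ± 0.15) did not pass the test. The complex III median of WT 1 to 4 minus WT 5 was also 0.30. In a fit of 14 libraries with listing order as a term, which called 0.965% of genes higher and 0.21% lower in KO, no member was called, with Uqcrh at 0.76 (adjusted p = 0.0926) and Uqcc2 at 0.27 (adjusted p = 0.368).

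Nuclear genes for the other respiratory complexes rose in part and by small amounts. In complex I, 7 of 36 rose and none fell, with a median of 0.32. The log2 fold change was positive in 36, beside 52.4% of all genes tested. In complex IV 7 of 15 rose (median 0.60) and in the ATP synthase, complex V, 4 of 16 (median 0.31), with none lower in either. Cox8a, a small subunit of cytochrome c oxidase, held 74.3, 78.7, 97.3, 87.7 and 81.2 CPM in KO and 53.6, 51.2, 50.5 and 49.1 CPM in Het (0.72 ± 0.09, adjusted p = 0.0133). Both KO 5 and KO 1 lay above all Het libraries for Cox8a. Between the groups lay WT 1 to 4, at 63.8 to 76.6 CPM, and WT 5, at 58.9 CPM, although WT 2 reached the lower KO values. For the complex I list the median of WT 1 to 4 minus WT 5 was 0.20, and in the fit with listing order its median KO effect was 0.14 with no member called. The complex V median of WT 1 to 4 minus WT 5 was 0.34, beside 0.31 for KO against Het, and the fit with listing order called none of its members (median 0.14). For complex IV these values were 0.31 for WT, and 2 members called with a median of 0.25 in the fit with listing order.

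Cox6a2 stood apart among complex IV genes. This gene, the muscle and heart form of subunit VIa, held 11.7, 26.6, 64.5, 51.2 and 34.2 CPM in KO and 6.58, 13.2, 7.04 and 6.43 CPM in Het. KO 1 lay below Het 2, and the other KO libraries lay above every Het library. Its log2 fold change was 2.19 ± 0.46 (adjusted p = 0.0251), and that of Cox6a1, the form found in most tissues, was 0.27 ± 0.08 (adjusted p = 0.0817).

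The 13 protein genes of mitochondrial DNA had their highest values in KO 5. Of these, 1 rose (mt-Co3, 0.69 ± 0.17, adjusted p = 0.0455), and the median log2 fold change was 0.41. KO 5 lay above every Het library for 13 of 13 genes, beside 28% of all genes tested, with a median difference of 0.87, whereas KO 1 to 4 had a median difference of 0.24 and KO 1 one of -0.13. The NADH dehydrogenase gene mt-Nd1 held 1330, 1650, 1860, 2110 and 3530 CPM in KO and 1160, 1550, 1260 and 1230 CPM in Het. KO 5 was the highest library and KO 1 lay inside the Het range (0.70 ± 0.25, adjusted p = 0.121).

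Regulators of the integrated stress response rose in part. Of 18 tested, 5 rose and none fell: Atf5, Trib3, Chac1, Gdf15 and Nupr1. Atf5, a transcription factor downstream of eIF2 phosphorylation, held 13.5, 45, 80.2, 102 and 68.3 CPM in KO and 9.80, 8.23, 10.3 and 9.95 CPM in Het. The groups did not overlap, KO 1 lay close above Het, and KO 5 was as high as KO 2 to 4. The log2 fold change of Atf5 was 2.70 ± 0.48 (adjusted p = 0.0159). Trib3, a pseudokinase induced by ATF4, held 1.64, 6.24, 9.23, 30.4 and 15.1 CPM in KO against 0.335 to 0.930 CPM in Het (4.48 ± 0.81, adjusted p = 0.0165). Gdf15, a secreted stress cytokine, held 2.79, 7.51, 4.95, 10.9 and 17.1 CPM in KO and 0.358 to 1.30 CPM in Het (3.36 ± 0.59, adjusted p = 0.0159). For Trib3 and Gdf15, too, all KO libraries lay above all Het libraries, and KO 1 was the lowest of KO. Chac1, which degrades glutathione, held 1.15 to 15.1 CPM in KO and 0 to 0.215 CPM in Het (adjusted p = 0.016). The Het values of Chac1 lie near the 0.2 to 0.232 CPM that 3 counts make in these libraries, so no fold is given.

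The other 13 members tested, with Atf4 and known ATF4 targets among them, did not pass. Atf4 itself held 114, 123, 110, 175 and 147 CPM in KO and 121, 110, 117 and 109 CPM in Het (0.23 ± 0.14, adjusted p = 0.32). Ddit3, which encodes CHOP, had a log2 fold change of 0.19 ± 0.19 (adjusted p = 0.563). The eIF2 kinase genes Eif2ak1 (-0.17 ± 0.07) and Eif2ak4 (-0.24 ± 0.10) and the mitochondrial protease gene Oma1 (-0.20 ± 0.09) had adjusted p of 0.201, 0.182 and 0.21. Sesn2 (0.91 ± 0.34) and Eif4ebp1 (0.78 ± 0.20), both known ATF4 targets, had adjusted p of 0.14 and 0.0516.

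Enzymes that make serine and feed one-carbon units into mitochondria rose in part. Of 14 tested, 6 rose and none fell, with a median log2 fold change of 0.70. Mthfd2, a mitochondrial methylenetetrahydrofolate dehydrogenase, held 24.1, 62.8, 65.5, 89.3 and 68.1 CPM in KO and 12.7, 11.9, 10.2 and 11.5 CPM in Het (2.43 ± 0.32, adjusted p = 0.0133). KO 5 stood among KO 2 to 4, and KO 1 lay between them and Het. In WT 1 to 4 it held 21.2 to 22.9 CPM, close to KO 1, and WT 5 held 10.6 CPM, inside the Het range. Aldh1l2, which oxidises formyl-tetrahydrofolate in mitochondria, held 4.51, 31.3, 30.5, 29.7 and 40.9 CPM in KO and 8.75, 6.01, 4.89 and 7.66 CPM in Het (2.01 ± 0.50, adjusted p = 0.0435). For Aldh1l2 KO 1 was below every Het library and the other 4 above. Phgdh, the first enzyme of serine synthesis, rose by 0.93 ± 0.17 on the log2 scale (adjusted p = 0.0174), Psat1, the next, by 1.14 ± 0.23 (adjusted p = 0.0232), and Shmt2, the mitochondrial serine hydroxymethyltransferase, by 0.95 ± 0.17 (adjusted p = 0.0159). Mthfd1l rose as well. Psph, the last step of serine synthesis, was at 0.13 ± 0.25 (adjusted p = 0.787).

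Amino acid transporters and enzymes moved in the same direction, with 7 of 14 higher, none lower and a median of 0.93. Slc1a4, a neutral amino acid carrier, held 26.5, 56.0, 62.5, 83.3 and 70.8 CPM in KO and 22.1, 28.0, 22.3 and 19.7 CPM in Het (1.38 ± 0.28, adjusted p = 0.0231). KO 1 lay inside the Het range and the other KO libraries lay above it. Slc7a11, the cystine carrier, held 9.19, 11.8, 15.3, 18.8 and 10.1 CPM in KO and 2.31, 5.01, 5.23 and 3.06 CPM in Het without overlap (1.75 ± 0.31, adjusted p = 0.0159), but WT 2 held 14.5 CPM. Asns, asparagine synthetase, rose by 2.69 ± 0.61 (adjusted p = 0.0332), and Slc7a5, Slc7a1, Slc3a2 and Got1 rose too. Of 20 cytosolic aminoacyl-tRNA synthetase genes 4 rose (Dars, Gars, Sars and Mars) and none fell, with a median of 0.35. KO 5 lay above every Het library for 19 of these 20 genes. Without KO 1, whose mean log2 CPM over this list was 6.01 beside 5.97 to 6.12 in Het and 6.43 to 6.56 in KO 2 to 5, 10 of 20 rose.

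The promoters of the called genes of these 4 lists were searched for TGATGNAA, the core of the composite element that ATF4 and C/EBP proteins bind, on both strands in the 250 bases before the gene start. It was present for 6 of the 19 called members with a RefSeq promoter entry (31.6%), 4 of 33 members that were not called (12.1%), 11 of 337 genes called higher (3.26%) and 233 of 9586 genes tested (2.43%). The 4 lists cover processes that ATF4 is known to drive, so their shares beside that of all genes tested are a description only. The stricter TGATGCAA, which is contained in TGATGNAA, was present for 4 of 19, 4 of 33, 5 of 337 and 62 of 9586 genes. TGATGCAAT, contained in both, was present for 1, 2, 1 and 10 genes of the same sets. The 6 sequences are printed because these genes rose together and hold the motif. They run 5′ to 3′ on the gene's own strand, in GRCm38.p6, and capitals mark TGATGNAA or its reverse complement:
Asns, chr6:7693210-7693459, minus strand: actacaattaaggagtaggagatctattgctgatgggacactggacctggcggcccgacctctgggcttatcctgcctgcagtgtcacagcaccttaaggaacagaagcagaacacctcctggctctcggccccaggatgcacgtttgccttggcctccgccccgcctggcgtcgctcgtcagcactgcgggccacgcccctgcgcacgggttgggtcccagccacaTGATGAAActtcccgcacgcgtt
Chac1, chr2:119350992-119351241, plus strand: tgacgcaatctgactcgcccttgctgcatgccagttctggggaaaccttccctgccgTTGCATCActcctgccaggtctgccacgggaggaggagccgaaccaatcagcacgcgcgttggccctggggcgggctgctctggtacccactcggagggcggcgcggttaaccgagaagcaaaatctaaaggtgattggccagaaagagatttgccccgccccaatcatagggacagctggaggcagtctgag
Gars, chr6:55037751-55038000, plus strand: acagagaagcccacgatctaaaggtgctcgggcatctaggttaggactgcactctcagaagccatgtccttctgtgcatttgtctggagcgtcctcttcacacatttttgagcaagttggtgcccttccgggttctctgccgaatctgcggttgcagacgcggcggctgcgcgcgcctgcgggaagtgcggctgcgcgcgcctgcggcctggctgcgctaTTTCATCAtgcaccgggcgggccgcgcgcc
Got1, chr19:43524606-43524855, minus strand: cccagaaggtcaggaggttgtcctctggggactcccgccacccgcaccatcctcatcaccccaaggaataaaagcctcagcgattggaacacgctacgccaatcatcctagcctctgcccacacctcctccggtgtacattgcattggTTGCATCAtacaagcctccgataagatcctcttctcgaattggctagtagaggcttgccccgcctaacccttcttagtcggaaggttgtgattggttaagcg
Nupr1, chr7:126625471-126625720, minus strand: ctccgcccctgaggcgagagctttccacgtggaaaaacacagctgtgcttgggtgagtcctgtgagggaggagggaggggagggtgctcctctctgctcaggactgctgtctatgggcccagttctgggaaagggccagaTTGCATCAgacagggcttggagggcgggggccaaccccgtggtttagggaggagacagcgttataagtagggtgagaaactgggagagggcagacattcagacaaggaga
Slc7a11, chr3:50443614-50443863, minus strand: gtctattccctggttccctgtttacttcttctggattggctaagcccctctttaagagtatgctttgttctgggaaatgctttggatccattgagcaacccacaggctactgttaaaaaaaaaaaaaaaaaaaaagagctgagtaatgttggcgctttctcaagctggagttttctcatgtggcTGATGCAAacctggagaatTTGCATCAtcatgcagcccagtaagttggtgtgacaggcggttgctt

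Slc7a11 holds the motif once on each strand, at 66 and 47 bases before the gene start, and Asns holds it 23 bases before. Atf5, Trib3, Gdf15, Mthfd2, Phgdh, Psat1 and Shmt2 are among the 13 called members without these letters in the window. A match describes the letters only, and binding was not measured.

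**Figure D2:**
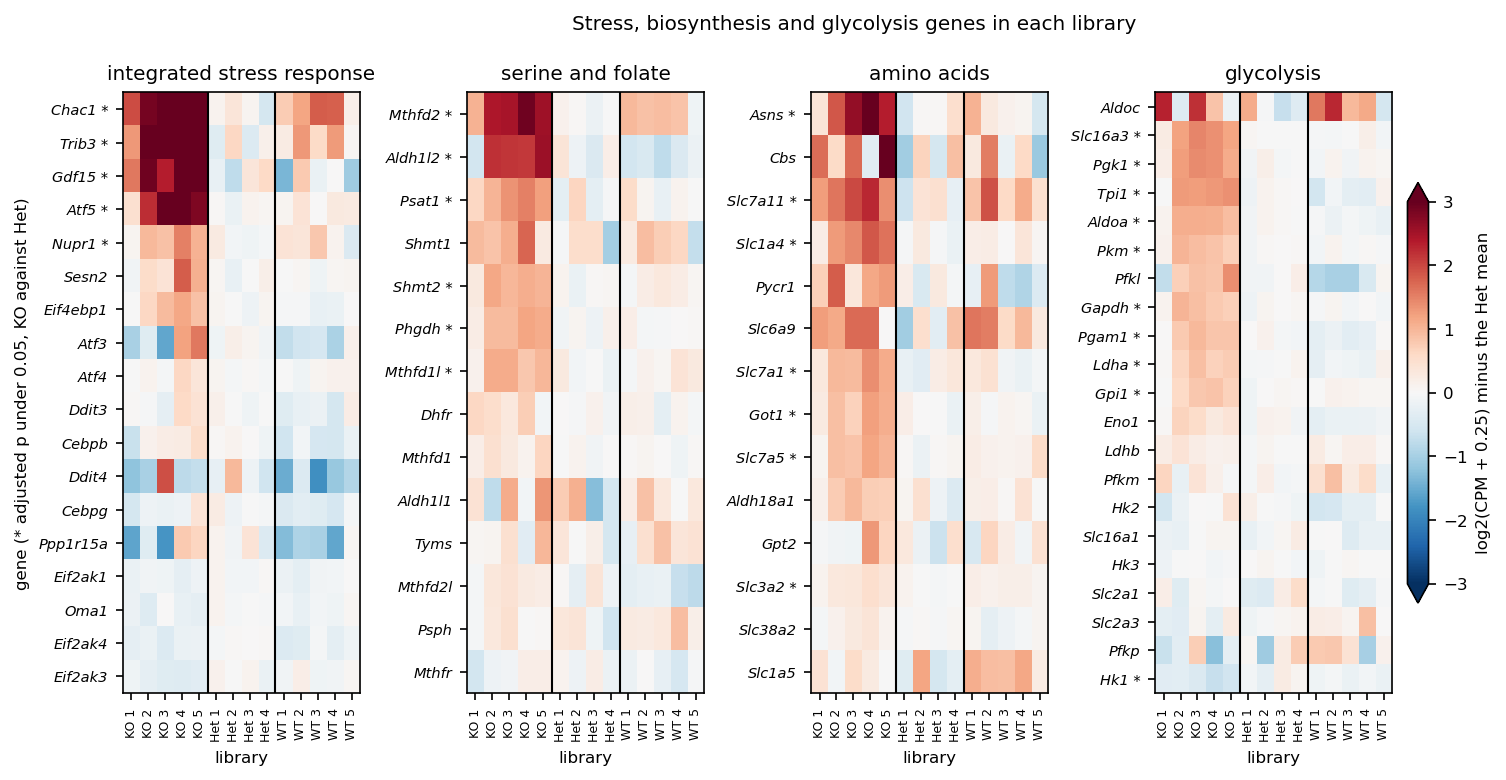
Log2(CPM + 0.25) of each gene minus its mean in Het 1 to 4, for the stress response, serine and folate, amino acid and glycolysis lists in the 14 naive ncRNA-poor libraries. An asterisk marks an adjusted p under 0.05 for KO against Het. The called genes are higher in KO, except Hk1, which is lower, and KO 1 is the lowest KO library for Atf5, Trib3, Mthfd2 and Pgk1.

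Several glycolysis genes rose. Of 21 tested, 9 rose, 1 fell and the median log2 fold change was 0.63. Pgk1, phosphoglycerate kinase, held 102, 215, 239, 231 and 195 CPM in KO and 82.7, 101, 86.2 and 88.8 CPM in Het (1.14 ± 0.21, adjusted p = 0.0181). KO 1 lay just above the highest Het library, and KO 5 with KO 2 to 4. Slc16a3, the lactate exporter MCT4, rose by 1.16 ± 0.20 (adjusted p = 0.0159), Aldoa by 0.90 ± 0.18 (adjusted p = 0.0224), Pkm by 0.77 ± 0.15 (adjusted p = 0.0227) and Ldha by 0.64 ± 0.15 (adjusted p = 0.0334). Tpi1, Gapdh, Pgam1 and Gpi1 were the others that rose. Hk1, hexokinase 1, fell by 0.47 ± 0.12 (adjusted p = 0.0488). Pfkl, a phosphofructokinase (0.77 ± 0.32, adjusted p = 0.18), and Eno1, an enolase (0.41 ± 0.12, adjusted p = 0.0768), did not pass. The glucose transporter Slc2a1 was at -0.07 ± 0.20 (adjusted p = 0.858). The median difference of WT 1 to 4 from WT 5 over this list was 0.03. Without KO 5, 6 of the 21 were called higher and none lower.

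In the list named HIF targets here, 6 of 21 genes rose, with none lower and a median of 0.30. Besides targets of the hypoxia factor HIF it holds Hif1a, which encodes a subunit of that factor. Bnip3, a mitophagy receptor, held 28.1, 51.5, 52.3, 64.2 and 50.5 CPM in KO and 25.6, 24.0, 22 and 26.3 CPM in Het (1.02 ± 0.20, adjusted p = 0.021). Vegfa, the endothelial growth factor, held 3.44, 11.9, 17.3, 37.8 and 30.2 CPM in KO and 4.48, 3.93, 3.35 and 2.76 CPM in Het (2.47 ± 0.58, adjusted p = 0.0359). Lox, a lysyl oxidase, held 2.30, 5.65, 27.0, 34.5 and 19.9 CPM in KO and 2.52, 2.72, 1.61 and 1.61 CPM in Het (3.08 ± 0.72, adjusted p = 0.0358). KO 1 lay inside the Het range for Vegfa and Lox, and KO 5 with the high libraries. Hif1a (0.71 ± 0.18, adjusted p = 0.0456), Higd1a and Pdk1 also rose. For Pdk1, the kinase that restrains pyruvate dehydrogenase, WT 1 to 4 held 113 to 120 CPM and WT 5 held 64.5 CPM, so that WT differed by listing order as KO did from Het. Egln3 (1.06 ± 0.43, adjusted p = 0.165) and Slc2a1 did not pass.

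Cytosolic ribosomal protein genes rose without exception in the list, 44 of 44, with a median log2 fold change of 0.99. For all 44 every KO library lay above every Het library. Rps6 held 514, 757, 943, 1060 and 851 CPM in KO and 384, 406, 367 and 380 CPM in Het (1.11 ± 0.18, adjusted p = 0.014). KO 1 was again the lowest KO library and KO 5 stood between KO 2 and KO 3. Rpl10a rose by 1.05 ± 0.16, Rpl6 by 0.95 ± 0.15 and Rpl22 by 0.86 ± 0.13, each with an adjusted p of 0.014. Ribosomal protein genes took 2.58, 3.47, 4.33, 4.84 and 3.88% of counts in KO, 1.90 to 2.06% in Het and 2.09 to 2.47% in WT. Of the 44, 21 were called without Het 1 and none without Het 3 or Het 4. These genes have many processed pseudogenes, and how reads shared with them were counted is not given in the sources used here.

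**Figure D3:**
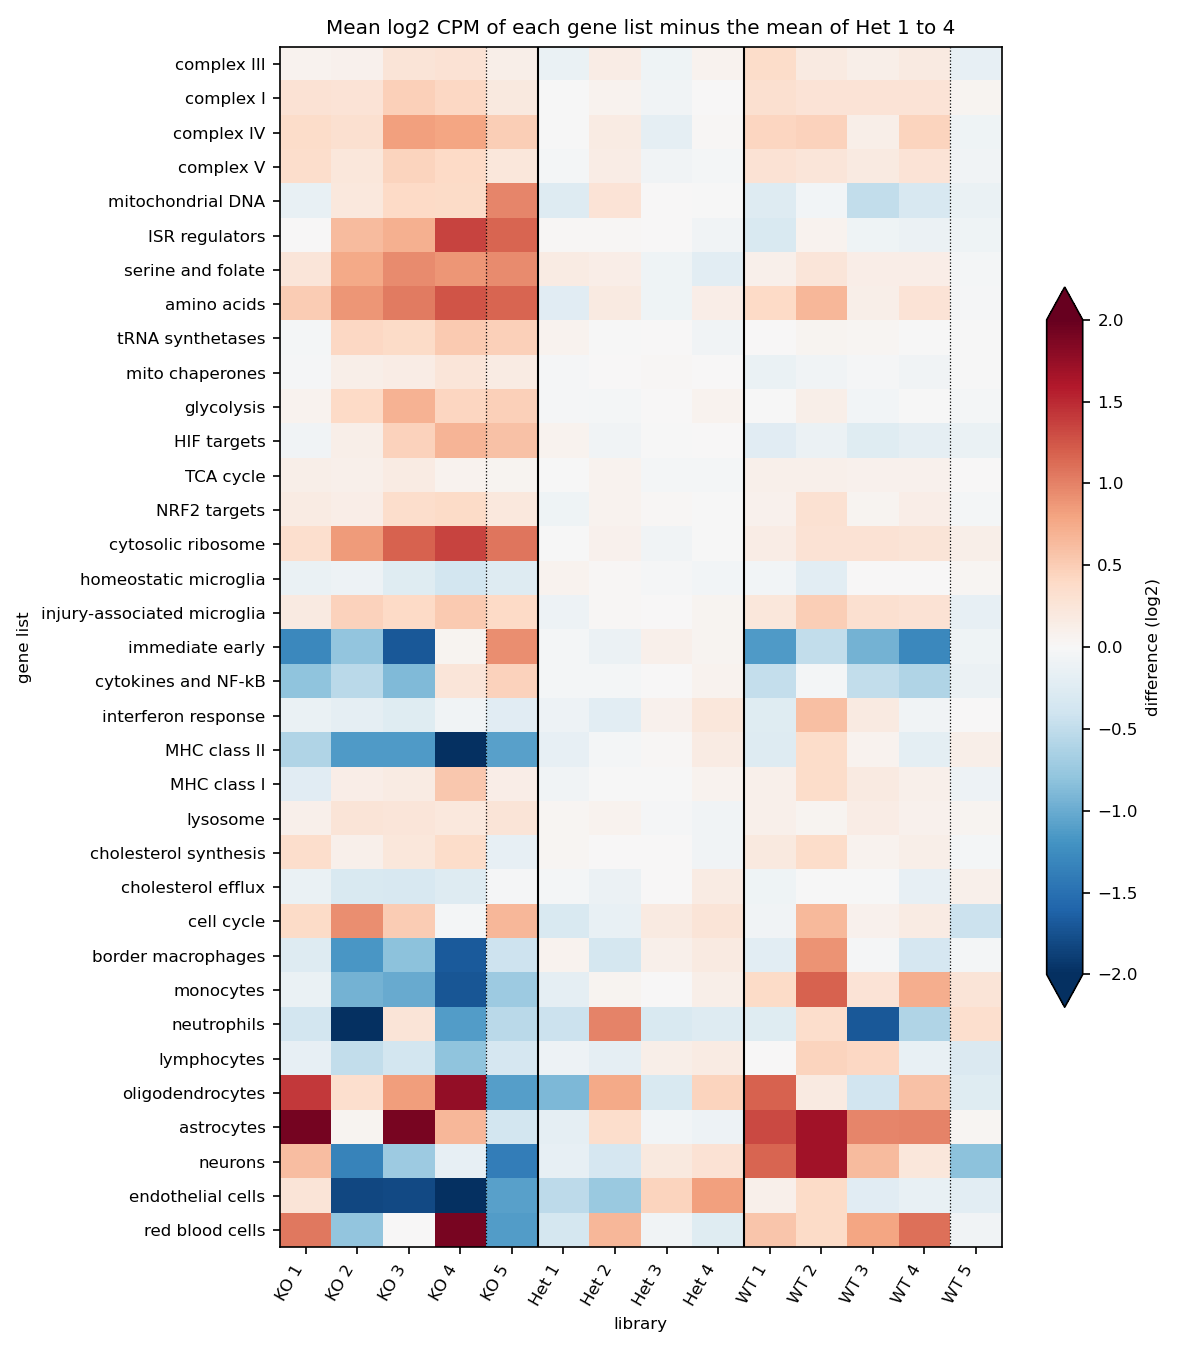
Mean log2 CPM of each gene list in the 14 naive ncRNA-poor libraries minus the mean of Het 1 to 4. Solid lines separate KO, Het and WT, and dotted lines set off KO 5 and WT 5. Ribosomal protein genes are high in all 5 KO libraries, and immediate early genes are low in KO 1 to 3 and WT 1 to 4 and high in KO 5.

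Markers of homeostatic microglia were slightly lower in KO. Of 19 tested, 5 fell, none rose, and the median was -0.22. Tmem119 held 4710, 4000, 4060, 3510 and 3630 CPM in KO and 5490, 5500, 5060 and 5100 CPM in Het (-0.40 ± 0.09, adjusted p = 0.0319). Selplg, a selectin ligand, fell by 0.66 ± 0.13 (adjusted p = 0.0188), Slc2a5, a fructose transporter, by 0.44 ± 0.07 (adjusted p = 0.014), Csf1r by 0.28 ± 0.07 (adjusted p = 0.0414) and Cx3cr1 by 0.24 ± 0.06 (adjusted p = 0.0337). For these 5 genes KO 1 and KO 5 both lay below every Het library. P2ry12 (-0.22 ± 0.06, adjusted p = 0.0629) and Sall1 (-0.05 ± 0.09) did not pass.

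Genes of injury-associated microglia were higher in part, with 12 of 27 higher, 1 lower and a median of 0.43. Itgax, the integrin CD11c, held 44.1, 61.3, 58.1, 82.6 and 61.3 CPM in KO and 24.4, 27.0, 27.1 and 27.6 CPM in Het (1.22 ± 0.16, adjusted p = 0.0133). Cst7, a cysteine protease inhibitor, held 11.4, 42.3, 35, 55.0 and 27.6 CPM in KO and 5.39, 6.87, 7.11 and 7.58 CPM in Het (2.35 ± 0.39, adjusted p = 0.014). For Itgax and Cst7 all KO libraries lay above all Het libraries, with KO 1 the lowest. The tetraspanin genes Cd63 (0.65 ± 0.08, adjusted p = 0.0133) and Cd9 (0.62 ± 0.09, adjusted p = 0.014) and the protease gene Ctsl (0.57 ± 0.08, adjusted p = 0.0134) rose. Axl, a receptor for apoptotic cells, fell by 0.54 ± 0.13 (adjusted p = 0.0351). Apoe was at -0.68 ± 0.21 (adjusted p = 0.0876), and Spp1 at -0.48 ± 0.35 (adjusted p = 0.43). Several of these genes were also higher in WT 1 to 4 than in WT 5. Itgax held 38.3 to 50.3 CPM in WT 1 to 4 and 25.0 CPM in WT 5, Cd63 held 334 to 348 and 245 CPM, and Ctsl held 909 to 960 and 671 CPM. Over the whole list the median difference of WT 1 to 4 from WT 5 was 0.37, beside 0.39 for KO 1 to 4 and 0.31 for KO 5 against Het.

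Lysosome genes rose in 8 of 23 with none lower (median 0.25). Ctsb, cathepsin B, held 3990, 5640, 5820, 5750 and 6110 CPM in KO and 3660, 3490, 3440 and 3360 CPM in Het (0.65 ± 0.11, adjusted p = 0.0159). Ctsz (0.61 ± 0.12, adjusted p = 0.0231) and Npc2 (0.35 ± 0.07, adjusted p = 0.0243), which carries cholesterol out of lysosomes, also rose. The list's WT 1 to 4 minus WT 5 median was 0.04.

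Genes of antigen presentation by MHC class II had the lowest median of the 35 lists. Of 9 tested, 5 fell and none rose, with a median of -1.5. Cd74, the invariant chain, held 322, 236, 220, 90 and 376 CPM in KO and 695, 753, 808 and 924 CPM in Het (-1.67 ± 0.32, adjusted p = 0.02). H2-Aa fell by 1.64 ± 0.33 (adjusted p = 0.0227), H2-Eb1 by 1.63 ± 0.35 (adjusted p = 0.0273), H2-Ab1 by 1.5 ± 0.30 (adjusted p = 0.0233) and Ciita, the class II transactivator, by 2.15 ± 0.46 (adjusted p = 0.0269). The groups did not overlap for these 5 genes, KO 4 was the lowest library, and KO 5 lay below every Het library for 9 of 9 genes of the list, beside 28.5% of all genes tested. WT libraries held 496 to 1040 CPM of Cd74 in WT 1 to 4 and 862 CPM in WT 5, a range that includes Het.

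Markers of other myeloid and vascular cells had negative medians. For border macrophages, monocytes and endothelial cells the list means in KO 2 to 5 lay below the Het range. KO 1 lay inside it for these 3 lists (5.62, 1.85 and 5.64). Neutrophil markers (median -0.89) differed, as KO 1 (2.63) and KO 3 (3.26) lay inside the Het range of 2.57 to 4.00. Border macrophage markers had a median of -0.88 with 0 of 12 called and 1 positive, beside 52.4% positive over all genes tested. Their mean log2 CPM over the list was 4.20 to 5.62 in KO and 5.53 to 6.06 in Het. Mrc1, the mannose receptor, held 334, 178, 231, 111 and 365 CPM in KO and 488, 331, 519 and 499 CPM in Het. KO 4 was the lowest library for Mrc1 as for Cd74, and KO 1 and KO 5 lay inside the Het range. Monocyte markers had a median of -1.08 (1 of 6 lower, Itga4, KO 0.27 to 1.85 and Het 1.80 to 2.11), and lymphocyte markers had 1 of 2 lower (Cd4), with 11 of 13 not passing the filter. Endothelial markers had a median of -1.19 with 0 of 11 called, KO 3.20 to 5.64 and Het 4.64 to 6.21. Cldn5, a tight junction protein, held 120, 17.5, 19.5, 14.8 and 42.2 CPM in KO and 57.5, 46.0, 122 and 162 CPM in Het. Without KO 1, 9 of the 11 endothelial genes, 4 border macrophage genes and 8 MHC class II genes were lower. In bulk samples fewer cells of a type and less RNA per cell cannot be told apart, and the part of these cells in the lower MHC class II values was not tested. Among the genes of largest decrease, Plbd1 (-1.54 ± 0.35), Mgl2 (-1.46 ± 0.28) and Col14a1 (-1.64 ± 0.39) fell with them (adjusted p of 0.0342, 0.0192 and 0.0379). Gimap6, a GTPase of immune cells, held 22.6, 11, 11.2, 10.8 and 10.8 CPM in KO and 31.0 to 45.9 CPM in Het (-1.46 ± 0.24, adjusted p = 0.014).

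Immediate early genes, which respond to stimulation within minutes and also to cell dissociation, separated KO 5 from KO 1 to 4. Of 22 tested, 1 fell (Fosl2) and none rose. Fos held 110, 156, 51.0, 263 and 1070 CPM in KO and 391 to 400 CPM in Het. KO 1 to 4 lay below every Het library and KO 5 above. KO 4 was not low over the whole list. The list's mean log2 CPM was 6.14, 6.63, 5.73, 7.48 and 8.36 in KO and 7.30 to 7.52 in Het, so that KO 4 lay inside the Het range. Over the list the median difference from Het was -0.86 for KO 1 to 4, 1.19 for KO 5 and 0.01 in the fit of all 9. The median of WT 1 to 4 minus WT 5 was -0.78, with Fos at 113 to 318 CPM in WT 1 to 4 and 376 CPM in WT 5. Fosl2, a partner of JUN proteins, behaved otherwise, at 21.2, 17.7, 21.7, 21.6 and 22.7 CPM in KO and 51.0, 43.7, 59.8 and 51.5 CPM in Het. KO 5 was as low as KO 1 to 4, and Fosl2 had the smallest p of all genes (-1.29 ± 0.11, adjusted p = 0.00524). Fosl2 held 21.9 to 25.9 CPM in WT 1 to 4, near KO, and WT 5 held 44.6 CPM, inside the Het range. The heat shock gene Hspa1a held 52.4, 296, 133, 340 and 357 CPM in KO and 416 to 749 CPM in Het (-1.39 ± 0.47, adjusted p = 0.105), and 61.8 to 220 CPM in WT 1 to 4 beside 593 CPM in WT 5.

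KO 5 is the KO library that shares its place in the listing order with Het, and it takes no part in a fit of KO 1 to 4 against Het 1 to 4. That fit called 410 genes higher (3.14%) and 425 lower (3.25%), of which 409 and 425 were also tested in all 9. KO 5 lay above every Het library for 358 of the 409 (87.5%, beside 28% of all genes tested), and below for 335 of the 425 (78.8%, beside 28.5%). Its sign was that of the call for 377 and 388 genes. Its difference from Het was at least 50% of that of KO 1 to 4 for 313 (76.5%) and 268 (63.1%). The median difference of the higher genes was 0.65 in KO 5 and 0.77 in KO 1 to 4, and that of the lower genes -0.34 and -0.54. Both differences are taken from the same 4 Het libraries.

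The 84 named genes were called in the fit that includes KO 5, so its side there is largely set by that choice and is a description only. KO 5 lay inside the Het range for 2 of them, Slc6a11 and Apold1. Slc6a11, a GABA transporter of astrocytes, had the largest positive fold change of the called genes whose mean log2 CPM was 3 or more (3.19 ± 0.81, adjusted p = 0.0459). It held 37.2, 4.38, 23.7, 14.8 and 1.5 CPM in KO and 1.89, 2.22, 1.61 and 1.45 CPM in Het, so that KO 5 lay with Het. It held 10.8 to 28.2 CPM in WT 1 to 4, and WT 5 held 0.717 CPM. Astrocyte markers as a list followed the same order, with a median difference from Het of 0.81 in KO 1 to 4 and -0.44 in KO 5, and of WT 1 to 4 from WT 5 of 2.04 (0 of 11 called, mean log2 CPM 1.95 to 4.23 in KO and 2.13 to 2.66 in Het). Oligodendrocyte markers differed from Het by 1.05 in KO 1 to 4 and by -1.14 in KO 5 (0 of 11 called, 4.37 to 7.23 and 4.57 to 6.22), and the part of these cells was not tested. Apold1, an early response gene of endothelial cells, held 3.03, 2.46, 2.40, 2.29 and 8.61 CPM in KO and 12, 6.37, 15.4 and 20.4 CPM in Het (-1.84 ± 0.47, adjusted p = 0.0455), with KO 5 inside the Het range. Without KO 5 the number of members called was 43 of 44 for the ribosome, 5 of 9 for MHC class II, 12 higher for injury-associated genes, 6 for complex IV, 6 for amino acids and 4 for serine and folate. It was 3 for HIF targets, 2 for tRNA synthetases and 0 for mitochondrial DNA, beside 6, 4 and 1 with KO 5.

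**Figure D4:**
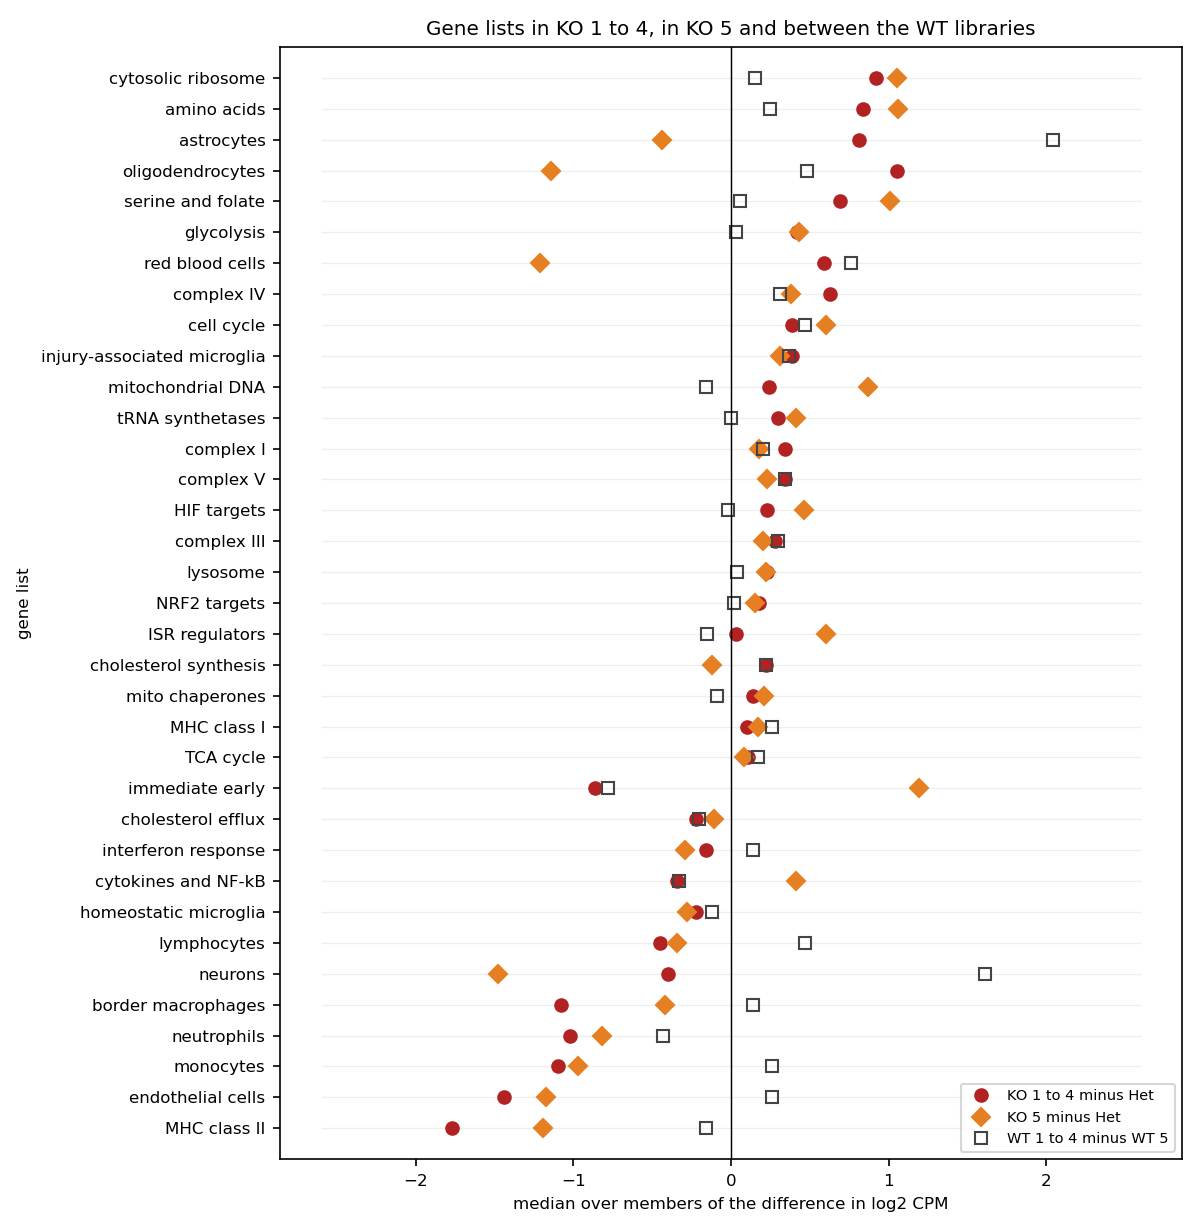
Median over the members of each gene list of the difference in log2 CPM from the Het mean, for KO 1 to 4 (circles) and KO 5 (diamonds), and of WT 1 to 4 minus WT 5 (open squares). KO 5 lies near KO 1 to 4 for ribosomal, amino acid, glycolysis and MHC class II genes, and on the other side of 0 for immediate early, astrocyte and oligodendrocyte genes.

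KO 1 was the KO library closest to Het in several lists. Its median difference from Het was 0.04 for glycolysis, where KO 2 to 5 had 0.63, and -0.07 for tRNA synthetases, where they had 0.40. It was 0.30 for amino acids (KO 2 to 5, 1.05), 0.22 for serine and folate (0.71) and 0.34 for the ribosome (1.09). In other lists KO 1 stood with the rest, at 0.30 for complex I (KO 2 to 5, 0.31) and 0.33 for complex V (0.31). KO 1 lay above every Het library for all 44 ribosomal genes, beside 28% of all genes tested. Its Uqcrfs1 level of 9.51 CPM lay inside the range of the other KO libraries.

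In the WT libraries listing order can be compared without a difference in the genotype label. WT 1 to 4 were higher than WT 5 for 377 of the 448 genes higher in KO (84.2%) and lower for 310 of the 370 genes lower in KO (83.8%). The size was smaller, at a median of 0.18 beside 0.71 for KO minus Het among the higher genes and -0.25 beside -0.53 among the lower. WT 1 to 4 lay on the KO side of midway between Het and KO for 170 (37.9%) and 187 (50.5%) genes. Over all genes tested the median of WT 1 to 4 minus WT 5 was 0.01, and these shares were not computed for all genes. WT 5 is 1 library and all WT libraries are male, so these differences have no replicate on 1 side. A fit of the 14 libraries with listing order as a term called 133 genes higher (0.965%) and 29 lower (0.21%) in KO, 116 and 18 of them shared with the 9-library fit. The order term itself was called for 30 genes higher and 117 lower in the first places. In that fit 34 of 44 ribosomal genes were called, 5 glycolysis genes, 4 stress regulators and 4 serine and folate genes higher. Fewer members were called there than in the 9 libraries for amino acids (2, from 7), lysosome (2, from 8), complex IV (2, from 7), injury-associated genes (1 higher, from 12) and HIF targets (1, from 6). None was called for homeostatic genes (from 5), tRNA synthetases (from 4), complex I (from 7), complex III (from 2) or complex V (from 4). The 1 MHC class II gene called lower was H2-Oa (-1.10, adjusted p = 0.0497), which is none of the 5 that fell in the 9 libraries. Of the 84 named genes 23 were still called, 59 kept their sign but were not called, and 2, Slc6a11 and Pdk1, changed sign. The KO effect was 2.80 for Atf5, 2.17 for Mthfd2, 1.16 for Pgk1 and -0.87 for Fosl2 (adjusted p = 0.0478), each still called. It was -1.26 for Cd74 (adjusted p = 0.154), -0.63 for Slc6a11 and -0.02 for Pdk1. Pnrc2, an RNA decay factor, differed by order in WT as well. It held 66.8, 59.6, 108, 48.0 and 54.3 CPM in KO, 275, 64.9, 246 and 199 CPM in Het, 61.0 to 71.0 CPM in WT 1 to 4 and 456 CPM in WT 5, with Het 2 at the level of KO. Its fold change was -1.54 ± 0.37 (adjusted p = 0.0413) in the 9 libraries and -0.01 with the order term.

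The same comparison was made in other naive adult libraries of the series, KO 6 to 11 against Het 5 to 11, which are of middle depth and rich in the 2 noncoding transcripts. As the labels are worded, sequencer and genotype cannot be told apart in these libraries either. Their sex is not given here, and their fit had no term for sex. There 366 genes were called higher (2.89%) and 542 lower (4.28%) of 12677 tested. Of the 448 genes higher in the 9 libraries 145 (32.4%) were called higher there too and 3 lower, and of the 370 lower genes 66 (17.8%) were called lower. The 145 and 66 make 39.6% and 12.2% of the calls in the middle-depth libraries. Of the ribosomal genes 37 of 44 were higher there (median 0.82), of glycolysis genes 8 of 21, and of serine and folate genes 6 of 14. Complex I had 0 of 36 called there (median 0.30), injury-associated genes 5 higher and 2 lower (median 0.34), and homeostatic genes 0 higher and 2 lower (median -0.03). Stress regulators had 5 of 17 higher and 3 lower there (median 0.14). The lower ones were Atf3 (-2.26, adjusted p = 0.00122), Ppp1r15a (-2.06, adjusted p = 0.000145) and Atf4 itself (-0.46, adjusted p = 0.0404). Amino acid genes had 4 of 12 higher and 0 lower (median 0.73). Atf5 (3.41), Mthfd2 (2), Lox (3.59), Vegfa (2.69), Cox6a2 (2.88) and Gimap6 (-2.23) had log2 fold changes of the same sign, each called. Slc16a3 was at 0.32 (adjusted p = 0.445), Itgax at 0.39 (adjusted p = 0.353) and Slc6a11 at -1.35 (adjusted p = 0.435). Slc7a11 was at 0.61 (adjusted p = 0.625) and Cst7 at 1.10 (adjusted p = 0.0617). Cd74 was at -0.32 (adjusted p = 0.502), H2-Aa at -0.25 (adjusted p = 0.613), and 2 of 9 MHC class II genes were called lower. Mitochondrially encoded genes were higher in 9 of 13 there, with a median of 1.00. The difference of the KO effect between the sets was called for 44 of 15228 genes (0.289%, with 1431 at an unadjusted p under 0.05), 7 of them among the 818 and none among the 84 named genes. Immediate early genes were lower in 20 of 22 there, with a median of -2.20, and for Jund, Klf2 and Btg2 the difference between the sets was called.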

How the data were processed

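The authors deposited 1 table of raw counts for 45708 genes and 64 libraries. According to the submitters' processing notes, GRCm38, STAR 2.6.1d, Salmon 1.5.2, Trim Galore 0.6.7 and bcl2fastq 2.20 were used, without a statement of which made the counts; strand and multimapping rules are not given in the sources used here. Members, gene lists, motifs and tests were chosen with earlier results of these data known. The 9 libraries were fitted alone with edgeR 4.0.16 (R 4.3.3; filterByExpr, minimum count 10, minimum total 15; TMM; two-sided quasi-likelihood test, no covariate). Displayed CPM are TMM-scaled over the 14 naive ncRNA-poor libraries, log2 CPM use a prior count of 2, and errors are standard errors. Libraries are called ncRNA-poor under a 1% share of Gm26917 and Yam1. Genes were named by a rule: Uqcrfs1; in each direction the 10 called genes of greatest fold change whose mean log2 CPM was 3 or more, leaving out Gm, Rik and AC symbols; and, per list, the called members of lowest p, 4 at most. Further list members appear with their values. Genes named for a difference between library sets (Rbm3, Srsf5 and others), and Hspa1a where it stands beside the immediate early genes, were chosen after their values were seen. Tested on simulated data (13121 genes, 200 of them changed, each with a mean count of 50 or more), the same code found 80% of the 2-fold changes, 100% of the 4-fold changes and 4 genes that had not been changed. The simulated spread followed the average trend with expression, without outlying libraries and without effects of sex or listing order. These rates therefore need not hold for the real libraries. Alternatives were DESeq2's size factors, DESeq2 1.42.0, no filter, a 64-library fit, listing order, sex, the replicate block and each library left out; the middle-depth fit was added later. Promoter sequences are RefSeq's. Clec7a and Dele1 were not analysed here.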

Additional observations from a re-analysis of the deposited data

Results flagged for a closer look

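For each of 112 sets of 4 or 5 libraries (list means and named genes, on the log2 CPM scale, KO and Het apart), the gap of the highest or lowest library to its neighbour was compared with the range. In 10 the gap was above Dixon's 95% limit, which chance alone exceeds in about 1 of 20 sets. KO 1 was the low library for the mean of serine and folate genes (3.57, others 4.08 to 4.27), tRNA synthetases (6.01, others 6.43 to 6.56), lysosome genes (8.99, others 9.10 to 9.15), Mthfd2 (4.6, others 5.98 to 6.48) and Aldh1l2 (2.22, others 4.90 to 5.36). It was the high library for Gimap6 (4.5, others 3.45 to 3.5). KO 5 was the high library for Apold1 (3.13, others 1.28 to 1.67). Het 2 was high for neutrophil markers (4.00, others 2.57 to 2.74) and Cox6a2 (3.73, others 2.72 to 2.85), and Het 4 was low for Gpr162 (2.15, others 2.91 to 2.99). Neutrophil markers had 5 of 12 members tested and 0 called, with a mean log2 CPM of 0.95 to 3.26 in KO.

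The KO effect differed between the 9 libraries and the middle-depth libraries, by the interaction term, for 10 genes that were called or belong to a list. As the middle-depth effect minus the effect in the 9 libraries, on the log2 scale, the difference was -1.63 for Rbm3 and -1.44 for Srsf5, both RNA-binding proteins. It was -1.62 for Rpl22l1, a ribosomal protein paralogue, -1.25 for Zfp770, 0.61 for Zdhhc9, 0.93 for Tgfbi and 2.73 for Zfp354c. Among immediate early genes it was -2.44 for Jund, -2.75 for Klf2 and -2.78 for Btg2. Rbm3, a protein induced by cold, held 101, 124, 69.1, 93.4 and 61.0 CPM in KO and 41.2, 24.4, 31.4 and 35.9 CPM in Het (1.45 ± 0.23, adjusted p = 0.014), with 67.7 to 129 CPM in WT 1 to 4 and 46.6 CPM in WT 5. Klf2 was at 202 CPM in KO 5, 28.5 to 42.5 CPM in KO 1 to 4 and 69.2 to 80.6 CPM in Het.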

How the results depend on the processing

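Depth lay between 11 and 15.1 M counts, and low genes (Chac1, Trib3, Gdf15) rest on few counts in Het. The counts of 448 higher and 370 lower genes were 849 and 889 with DESeq2's Wald test, 272 and 237 without a filter, 272 and 230 in the 64-library fit, 133 and 29 with listing order in 14 libraries, 2 and 0 for KO 5 against Het with order as a term in the 9 (1687 genes at an unadjusted p under 0.05), and 0 and 2 with sex. Leaving out 1 library gave 0 to 653 higher and 1 to 635 lower. DESeq2's size factors gave 427 and 394. Replicate numbers did not pair the libraries (correlations of deviations -0.169, -0.029, -0.089 and -0.056), and with the replicate block 0 genes were called higher and 0 lower in edgeR, with 2710 at an unadjusted p under 0.05. Without KO 5 the counts of 410 and 425 became 929 and 1011 with DESeq2's Wald test, 271 higher without a filter, 0 and 3 with sex, 0 and 0 with the replicate block, and 0 to 585 and 0 to 650 with 1 more library left out. Uqcrfs1 stayed below 0 throughout, at -1.72 for KO 5 against Het (adjusted p = 0.206), -1.72 with the replicate block (adjusted p = 0.0909), -2.11 with sex, and -1.85 to -1.49 with 1 library left out. Slc6a11 turned to -0.63 with order in 14 libraries and -0.25 for KO 5 against Het, and Pdk1 to -0.02 in 14 libraries. No other named gene changed sign. The cause of the changed counts was not tested. Of the 84 named genes 1, Fosl2, was called in each fit that left out 1 library.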

Other observations

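Few members of the lists not described above were called. Of 20 TCA cycle genes 0 were called (median 0.13), of 16 mitochondrial chaperone and protease genes 1 rose (Hspe1, 0.61 ± 0.14, adjusted p = 0.0337), and of 19 NRF2 targets 3 rose, Slc7a11 and the redox genes Txn1 (0.44 ± 0.09) and Prdx1 (0.36 ± 0.08), with adjusted p of 0.026 and 0.0364. Cholesterol synthesis genes rose in 2 of 20, Sc5d (0.73 ± 0.16) and Dhcr7 (0.61 ± 0.14), with adjusted p of 0.0289 and 0.0362, and none of 11 efflux genes was called. Interferon response genes fell in 2 of 23, Ddx58 (-0.64 ± 0.14, adjusted p = 0.0264) and Ifi204 (-0.58 ± 0.13, adjusted p = 0.0319). None of 20 cytokine and NF-kB genes and none of 14 MHC class I genes was called. Cell cycle genes had a positive fold change in 27 of 28, beside 52.4% of all genes tested, with a median of 0.50. Only Ube2c was called, at 3.28, 6.24, 3.98, 4.39 and 4.42 CPM in KO and 0.77, 1.93, 1.88 and 1.53 CPM in Het (1.55 ± 0.33, adjusted p = 0.0269).

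Tmem161a, a membrane protein gene, held 95.3, 120, 229, 77.4 and 73.1 CPM in KO and 19.1, 12.6, 24.3 and 19.4 CPM in Het (2.67 ± 0.36, adjusted p = 0.0134). WT 1 to 3 held 19.7 to 22 CPM, but WT 4 held 68.6 CPM and WT 5 held 170 CPM, inside the KO range. Gpr162, an orphan receptor, held 13.8, 16.0, 22.3, 52.1 and 19.6 CPM in KO and 7.35, 7.80, 7.71 and 4.29 CPM in Het (1.87 ± 0.40, adjusted p = 0.0273), with 11.7 to 16.1 CPM in WT 1 to 4 and 6.30 CPM in WT 5. Markers of red blood cells (0 of 6 called, KO 6.67 to 9.69, Het 7.43 to 8.45) and neurons (0 of 4 called, KO -0.57 to 1.44, Het 0.49 to 1.11) spanned the Het range.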
